A study of Mus musculus with 24 samples.

Results

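How far mRNA abundance differed between mice of the same diet was measured in the liver and the colon of 12 mice, each tissue on 1 two-colour microarray per mouse. All 24 arrays of the series were used, in 4 groups of 6 by tissue and diet. Features (probes of the array that are not controls) entered for a tissue where the Cy3 signal was well above background on all 12 of its arrays, which left 9761 of 41174 features (23.7%) in liver and 13834 (33.6%) in colon, with 9111 in both. For each feature the mean of its tissue and diet was removed from the log2 ratio of Cy3 (the tissue sample) over Cy5 (the reference), and the standard deviation (SD) of what remained, with 10 residual degrees of freedom, was the within-diet spread. Genes and gene lists are ranked below by that SD, so the features called most and least variable were chosen by the very values shown, and those values are a description without a test. The tests that are given use what the ranking did not: the diet, the scan day, and which liver and colon came from the same mouse.

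The animals were female C57BL/6 mice sampled at 12 weeks of age. Every dam had eaten a high-fat diet low in folate (0.4 mg/kg) and selenium (0.1 mg/kg) through mating, pregnancy and lactation. After weaning the HF-low-low mice stayed on that diet, and the HF-low-suf mice were moved to a high-fat diet sufficient in both, holding selenium at 0.60 mg/kg with folate at 1.8 mg/kg. There was no group on a low-fat diet and no group from dams on the sufficient diet, so all 4 groups share the high-fat, low-folate and low-selenium start. The reference was an equal pool of liver and colon RNA of all mice, and whether mice of a group came from the same litters is not stated. Replicate i of a diet is the same mouse in both tissues, and arrays of the same number lay on the same slide, with replicates 1 to 3 scanned on the first day and 4 to 6 on the second.

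Transcripts differ between genetically alike animals for several known reasons. Some genes follow the time of day through the circadian clock, a loop in which Arntl and Clock switch on repressors and output genes such as Dbp. Others follow feeding, stress or immune signals, and the mix of cell types in a piece of tissue also varies. Genes for ribosomes, respiration and RNA splicing are used by every cell and are usually held at steady levels. The mice had been fasted and re-fed before sampling.

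The tissue labels held in the data. All 18 hepatocyte genes on the array had higher log2 ratios in liver, with a median difference of 5.33, while 24 of 32 colonocyte transport genes and 19 of 21 goblet cell and mucus genes were higher in colon. The Cy5 reference of 3 liver arrays, HF-low-low replicate 6 and HF-low-suf replicates 4 and 5, had a raised floor. The 5th percentile of their log2 reference signal was 10.39, 10.46 and 9.76, against 9.12 to 9.48 on the other 9 liver arrays and 8.54 to 9.27 in colon. On these 3 arrays, all of the second scan day, high liver ratios were compressed: the slope of the ratios on the liver mean was 0.87, 0.82 and 0.93, against 0.94 to 1.11 on the other liver arrays. A number of liver lists and genes, and the scan-day results, are therefore also given without their mice. The other liver values, among them the counts over all features, hold all mice unless stated. A further set of features, described next, rose and fell together on a few arrays of each tissue.

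Cox17 (a copper chaperone for cytochrome c oxidase) and Klf2 (a transcription factor of endothelial cells and lymphocytes) headed the named genes in liver, and Cox17 and Ptprz1 (a receptor tyrosine phosphatase) in colon. The Cox17 feature had an SD of 2.66 ± 0.60 (SE) in liver and 2.47 ± 0.55 in colon. In the liver of HF-low-low mice its log2 ratio ran from -7.35 to 0.80 with a median of 0.15, and in HF-low-suf mice from -3.81 to 1.44 with a median of 0.06. One array, HF-low-low replicate 3, was far below the rest, and without it the liver SD was 1.58 for Cox17 and 1.45, in place of 2.28, for Klf2. The features that correlated above 0.9 with the Cox17 feature over the arrays of a tissue are called co-moving here. There were 279 in liver, 81 in colon and 42 in both, and they made up 30 of the 50 most variable features in liver and 37 of 50 in colon. All 12 named genes of highest SD in liver and all 12 in colon were of this kind, among them H1fx (a linker histone), Slc4a7 (a bicarbonate transporter), Grn (progranulin), Lars2 (mitochondrial leucyl-tRNA synthetase) and Tmem165 in both tissues.

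The sequences of these features were unusual. Of the 42 shared co-moving features, 24 had more than 60% G and C, against 65 of all 9111 features (0.713%), and their median G and C content was 68.3% against 43.3%. Of all co-moving features this was less marked in liver, with 29 of 279 (10.4%) above 60% and a median of 51.7%, than in colon, with 32 of 81 (39.5%) and a median of 55.0%. Where another feature measured the same gene, it mostly had a far lower SD. Its correlation with the co-moving Cox17 feature was mixed. In liver and colon r was 0.86 and 0.84 for Oaz1, 0.82 and 0.60 for Grn, and 0.71 and 0.56 for 2610009E16Rik. It was 0.70 and -0.24 for Tmem165 and 0.67 and 0.48 for Erdr1. For the remaining second features r ran from -0.59 to 0.47 in liver. Of 12 genes with such a second feature 4 are shown because each has a co-moving feature and one that varied far less. Each line gives 30 bases of the probe, with the longest run of G and C in capitals.
Cox17, co-moving: aGCCCGCCGCacccaccggcccgcacggct
Cox17, other feature: GCCCGGaaaccaagaaggcgcgtgatgcgt
Klf2, co-moving: CGCCGCCGCtcagccccgacggccccctgc
Klf2, other feature: ctataagggagacgatggcatctctGCCGC
Rusc1, co-moving: cgtgtccgccgaCCGCCCCtcgctggacca
Rusc1, other feature: ctcctcactctgtctctaGCCCttcttgcc
Tfam, co-moving: ggctccgccccctcctCGGCCCGGCCCGCC
Tfam, other feature: GCCttgacagaagatgatgctgagttctgc

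In build mm7, as the file headers place them, the co-moving probe of Cox17 is at chr16:38059995-38060054 and the other at chr16:38053879-38055971, both on the plus strand. Those of Klf2 are at chr8:70842757-70842816 and chr8:70844133-70844192, also on the plus strand. Those of Rusc1 are at chr3:89203566-89204353 and chr3:89197874-89197933, and those of Tfam at chr10:70840345-70840405 and chr10:70830570-70830629, all on the minus strand. No annotation of that build was used, so exons and untranslated regions are not assigned. The other Cox17 feature had an SD of 0.22 in liver and 0.37 in colon, that of Klf2 0.30 and 0.43, and that of Rusc1 0.15 and 0.18, where its co-moving feature had 2.13 and 1.96. For Tfam, the mitochondrial transcription factor, the SD was 1.28 in liver and 1.25 in colon from the co-moving feature and 0.14 and 0.20 from the other. The swings of Cox17, Klf2, Rusc1 and Tfam were therefore seen by 1 feature of each gene and not by the other.

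The co-moving features varied more in the sample channel than in the reference, and more than the typical feature in both. Their median SD was 1.42 in Cy3 and 0.37 in Cy5 in liver, against 0.260 and 0.098 for all features. In colon it was 1.28 and 0.35, against 0.279 and 0.099. As a mean deviation from the diet, they were lowest in liver on HF-low-low replicate 3 (-3.19), HF-low-suf replicate 3 (-1.97) and HF-low-suf replicate 2 (-1.30). In colon they were lowest on HF-low-low replicate 1 (-2.34) and HF-low-suf replicate 2 (-2.58). All 5 of these arrays were scanned on the first day. The second-day arrays lay between 0.23 and 1.42 in liver and between -0.27 and 1.64 in colon. HF-low-suf replicate 2 was low in both tissues, but no correlation between liver and colon of the same mouse was detectable (r = 0.28, permutation P = 0.410; rho = 0.01, permutation P = 0.974; r = 0.44 without the 2 mice farthest from the median; n = 12 mice). RNA integrity per array was not used here, and its part and that of scan day in this pattern were not tested.

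**Figure D1:**
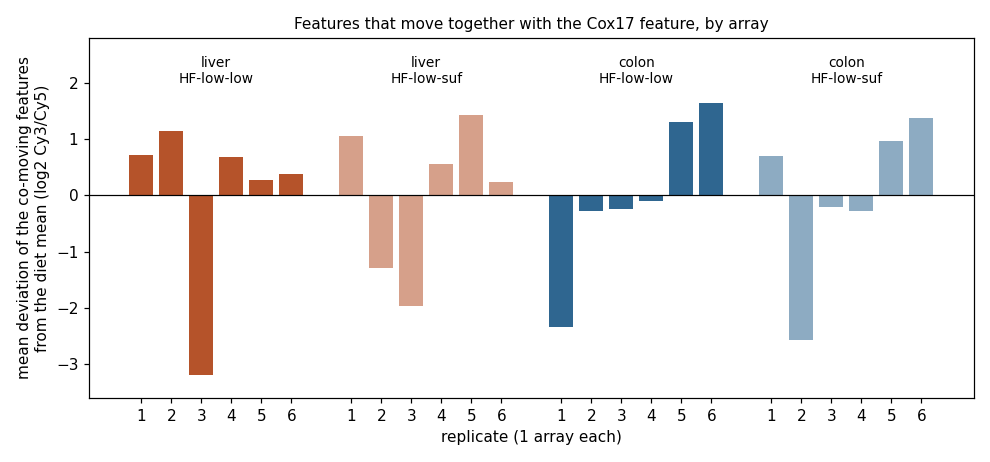
Mean deviation of the 42 shared co-moving features from the mean of their tissue and diet (y axis, log2 Cy3/Cy5) on each of the 24 arrays (x axis, replicate number within group), 1 bar per array, liver in brown and colon in blue, HF-low-suf paler. The bars of 5 arrays fall below -1: liver HF-low-low replicate 3 and HF-low-suf replicates 2 and 3, and colon HF-low-low replicate 1 and HF-low-suf replicate 2.

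Across all detected features the tissues had near-identical typical spread. The median SD was 0.260 in liver and 0.261 in colon on the log2 scale, and for the 9111 features of both tissues it was 0.254 and 0.249, with liver higher for 51.1%. The liver values reached further out: 897 features (9.19%) had an SD above 0.5 in liver and 900 (6.51%) in colon. From the 10th to the 90th percentile the SD ran 3.18-fold in liver, from 0.153 to 0.486, and 2.88-fold in colon, from 0.156 to 0.450. The highest 10% of features held 44.5% of the summed variance in liver and 39.5% in colon. The members just inside and outside that limit had SDs of 0.48623 and 0.48617 in liver and 0.45007 and 0.45000 in colon, and at the lowest 10% of 0.15284 and 0.152841 in liver and 0.15609 and 0.15615 in colon. An SD on 10 degrees of freedom carries a relative standard error of 22.4%, and a ratio of 2 such SDs 31.6%, so neighbours in these ranks do not differ beyond their error.

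The SD between arrays holds labelling, hybridisation and slide differences as well as those between mice. Features printed in 10 spots per array had a median SD between spots of 0.0352 in liver (76 features) and 0.0402 in colon (116), and the median SD of the Cy5 reference across arrays was 0.098 and 0.099. The SD depended little on brightness, with medians of 0.277 for the dimmest and 0.248 for the brightest of 4 equal groups in liver, and 0.265 and 0.252 in colon. In liver it depended on how far a feature's ratio lay from the reference. The median SD was 0.230 for features with a mean log2 ratio within 0.5 of 0 (5041 features) and 0.395 for those beyond 1.5 (1236), and the Spearman correlation of SD with the size of the mean ratio was 0.37 in liver and 0.10 in colon, across features that share the same arrays.

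**Figure D2:**
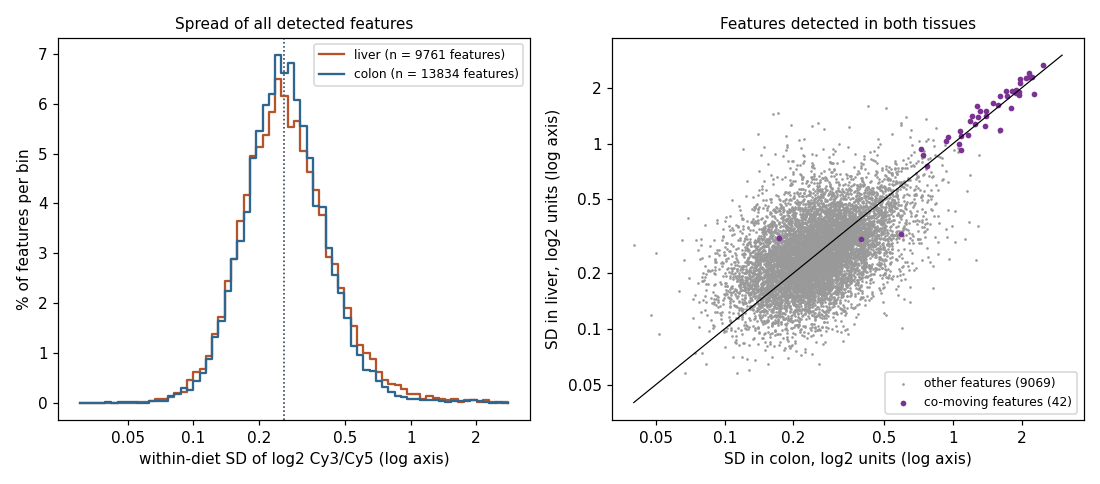
Left, share of detected features (y axis, percent per bin) by within-diet SD of log2 Cy3/Cy5 (x axis, log scale), liver in brown and colon in blue, with dotted lines at the medians of 0.260 and 0.261. Right, SD in liver (y axis) against SD in colon (x axis), both log axes, for the 9111 features of both tissues, with a line of equality. The 42 shared co-moving features, in purple, lie mostly at the upper end, with a few such as Oaz1 (0.31 in liver and 0.17 in colon) among the rest.

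The spread of a whole array did not differ detectably between tissues. The median absolute deviation of an array from its diet mean, over the features of both tissues, averaged 0.166 in liver and 0.163 in colon, and the difference within mice was 0.0036 ± 0.017 (SE; exact sign-flip test over 12 mice, two-sided, P = 0.828), with liver higher in 7 of 12 mice. When the mean of each slide was also removed, the difference was -0.0174 (exact sign-flip P = 0.156 over the 6 slides, since both arrays of a tissue on a slide then deviate equally). The same features tended to vary in both tissues. The Spearman correlation of SDs was 0.45 across the 9111 features, and 0.44 without the co-moving ones, with the slides and the reference shared. Of the 911 most variable of these features in each tissue, 371 (40.7%) were shared, and of the 911 least variable 234 (25.7%).

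Diet groups did not differ detectably in spread. In liver the array spread averaged 0.162 in HF-low-suf and 0.179 in HF-low-low mice (difference -0.0172, exact permutation P = 0.517, two-sided, 6 against 6), and in colon 0.153 and 0.186 (difference -0.0328, exact permutation P = 0.238). With 1 mouse left out the difference ran from -0.0285 to 0.0103 in liver and from -0.0576 to -0.0108 in colon, where the exact permutation P was 0.0433 without HF-low-suf replicate 2. The difference between the tissues in this diet effect was 0.018 (exact permutation P = 0.602). No feature had a spread that differed between diets by limma with Benjamini-Hochberg adjustment, with 0% called in liver and 0% in colon (1 feature in colon when 1 feature per gene was tested). At an unadjusted P below 0.05 there were 343 in liver and 981 in colon, and the smallest adjusted P was 0.999 and 0.073. Ranks of SD computed in each diet separately correlated at a Spearman rho of 0.65 in liver and 0.50 in colon, and 549 of the 976 most variable liver features (56.2%) and 622 of 1384 colon features (44.9%) came out in both diets.

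Gene lists for cell types, responses and metabolism are compared by the median SD of their detected members over the median SD of all features of that tissue, called the relative spread. A value of 1 is the typical feature, and by construction 10% of all features fall among the most variable and 10% among the least variable of a tissue. Errors are jackknife standard errors over mice. Each gene is represented by its brightest detected feature. Grouped broadly, liver genes of other tissues (47 genes) had a relative spread of 2.02, cell type markers 1.81, response genes 1.72, lipid genes 1.52, other metabolic genes 1.28, immune genes 1.22 and housekeeping genes 0.82. The other-tissue value holds 21 skeletal muscle genes, a list that stood at 2.57, and at 1.52 without HF-low-suf replicate 2. Without the 3 raised-reference mice, its enterocyte, pancreas and bile duct lists stood at 0.87, 1.08 and 1.07, from 1.74, 1.802 and 1.56. In colon the values lay closer together and in another order, with 1.34 for cell type markers, 1.28 for other tissues, 1.24 for responses, 1.23 for immune genes, 1.04 for lipid genes, 1.01 for housekeeping genes and 0.99 for other metabolic genes. The housekeeping genes had 4 of 336 among the most variable and 66 among the least variable in liver, but 32 and 46 of 349 in colon.

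**Figure D3:**
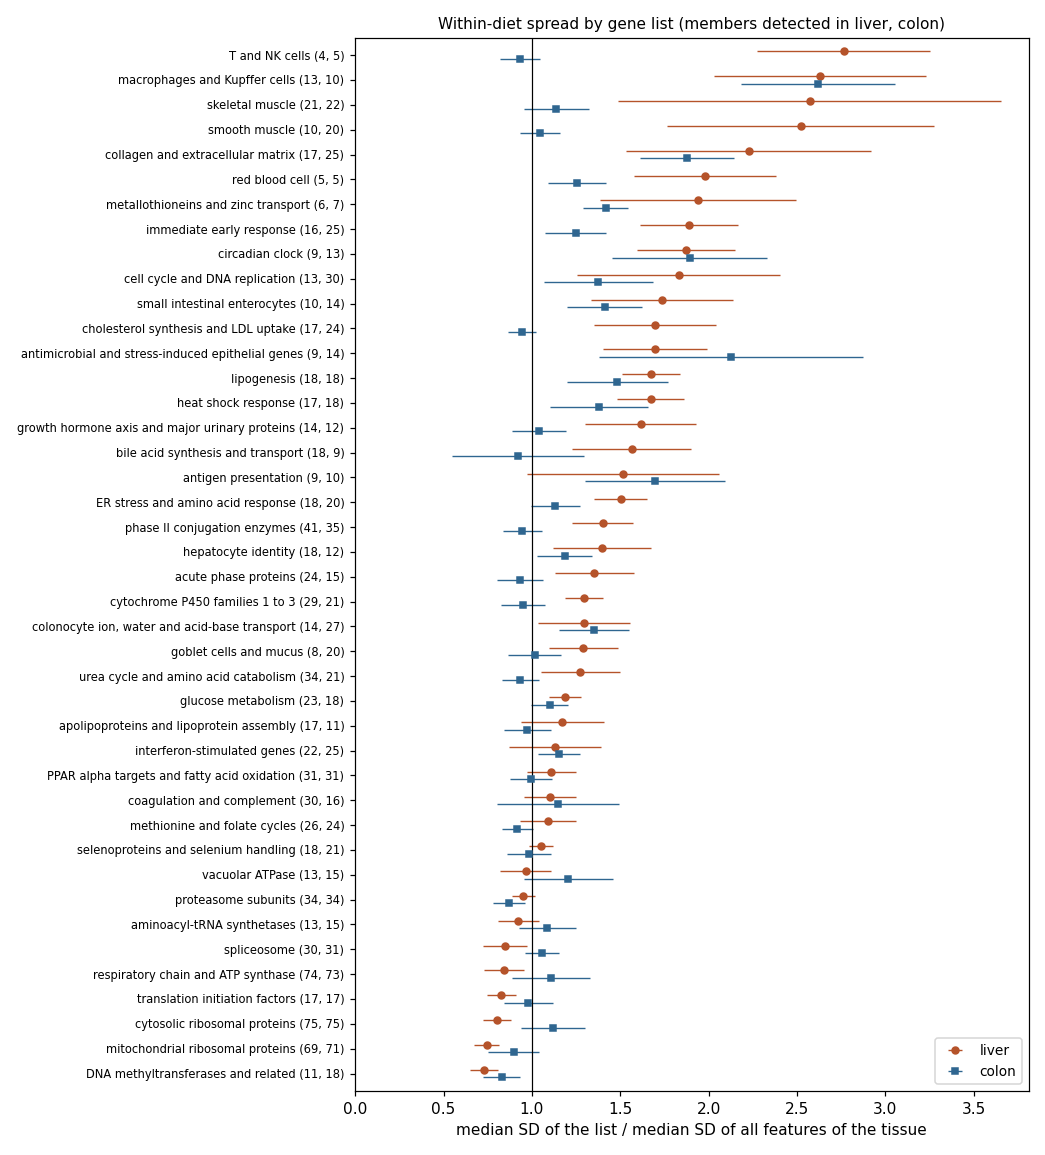
Relative spread (x axis, median SD of the list over the median SD of all features of the tissue) for each gene list with at least 4 detected members in both tissues (y axis, with the numbers detected in liver and colon), liver as brown circles and colon as blue squares, bars being jackknife standard errors over 12 mice. Macrophage, collagen and clock lists lie right of 1 in both tissues, while muscle lists lie at 2.52 to 2.57 in liver and near 1 in colon.

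Macrophage and Kupffer cell genes were among the most variable lists in both tissues. The relative spread was 2.63 ± 0.60 in liver, with 11 of 13 detected members among the most variable 10%, and 2.62 ± 0.43 in colon, with 9 of 10. Marco, a scavenger receptor of Kupffer cells, had liver log2 ratios from 1.12 to 4.95 (median 3.54) in HF-low-low and from 1.92 to 3.62 (median 2.36) in HF-low-suf mice, an SD of 1.24 ± 0.28. The HF-low-low mice alone spanned the whole range seen in liver, and the diets overlapped. Ctss (cathepsin S) and Lyzs (lysozyme) followed in liver with SDs of 0.87 and 0.87. The arrays named next were picked by the mean of the list, and correlation among its members was not tested. In liver the mean deviation of the 13 genes was highest in HF-low-low replicate 2 at 1.11, where all 13 lay above their diet mean, and lowest in HF-low-low replicate 1 at -1.15, where none did. In colon C1qa and C1qc, which encode complement chains made by macrophages, and Emr1 (the F4/80 antigen) had SDs of 0.89, 0.71 and 0.88, and the list was lowest in HF-low-low replicate 3 at -0.98. In whole tissue, more cells of a type and more RNA per cell cannot be told apart.

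Collagen and antigen presentation genes were also variable, and no correlation between these lists over mice was tested. Collagen and extracellular matrix genes had a relative spread of 2.23 ± 0.69 in liver (10 of 17 most variable; 1.40 with median centring) and 1.88 ± 0.27 in colon (19 of 25). Col1a1, a chain of type I collagen, had an SD of 0.87 in liver and 0.83 in colon, and Col14a1 had 0.95 in colon. In liver the list was highest in HF-low-low replicate 2 (0.85, 16 of 17 above the diet mean), the mouse with the highest macrophage genes, and lowest in HF-low-suf replicate 3. In colon it was highest in HF-low-suf replicate 4 (0.64, 25 of 25) and lowest in HF-low-low replicate 3 (-0.70), the array lowest in macrophage genes. Among MHC class II genes, H2-Ab1 and H2-Eb1 had SDs of 0.76 and 0.70 in liver, farthest in HF-low-low replicate 2 (0.46 and 0.42 without it), and Cd74 and H2-Eb1 had 0.84 and 0.80 in colon, farthest in HF-low-low replicate 3. The antigen presentation list stood at 1.52 ± 0.54 in liver (0.87 with the co-moving features as a covariate, below the typical feature) and 1.70 ± 0.39 in colon, and the class I gene H2-K1 was its steadiest member in both (SD 0.16 and 0.12).

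Muscle and fat genes were highly variable in liver, with 1 array far above the rest for the muscle genes and for Fabp4. Myh2 (a fast muscle myosin), at 1 of its features, had log2 ratios from -5.20 to -4.09 (median -4.57) in HF-low-low and from -5.09 to 0.69 (median -4.08) in HF-low-suf mice. The high value was HF-low-suf replicate 2, which supplied 63.6% of its summed squared deviations. The same array was farthest for Fabp3 (heart and muscle fatty acid binding protein, SD 1.47, 0.73 without it), Cox6a2 (a muscle cytochrome oxidase subunit, 1.44 and 0.57), Ckmt2 (mitochondrial creatine kinase) and Eno3 (muscle enolase). The 21 skeletal muscle genes averaged 1.70 above the diet mean on it, with 19 of 21 above, and the relative spread of the list was 2.57 ± 1.08 with all mice and 1.52 without this one. Smooth muscle genes stood at 2.52 in liver, 1.82 without this mouse and 1.57 with median centring. In colon the skeletal muscle list stood at 1.14 ± 0.18 and the smooth muscle list at 1.04 ± 0.11. Fabp4, the fatty acid binding protein of fat cells, ran from -3.17 to -1.88 (median -2.48) in HF-low-low and from -2.78 to 2.24 (median -2.36) in HF-low-suf liver. The value of 2.24 was HF-low-suf replicate 1, which supplied 70.4% of the summed squares. The 3 detected adipose genes had a relative spread of 4.05 ± 1.84, and 2.22 without that mouse, on which 2 of the 3 were above the diet mean. Without it the SD went from 1.39 to 0.58 for Fabp4 and from 1.06 to 0.88 for Lpl (lipoprotein lipase). HF-low-suf replicate 1 was also farthest for Hsd3b1, a steroid dehydrogenase, at 2.83 against -1.47 to -0.50 on all other liver arrays (77.5% of its summed squares), with an SD of 0.31 without that mouse.

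**Figure D4:**
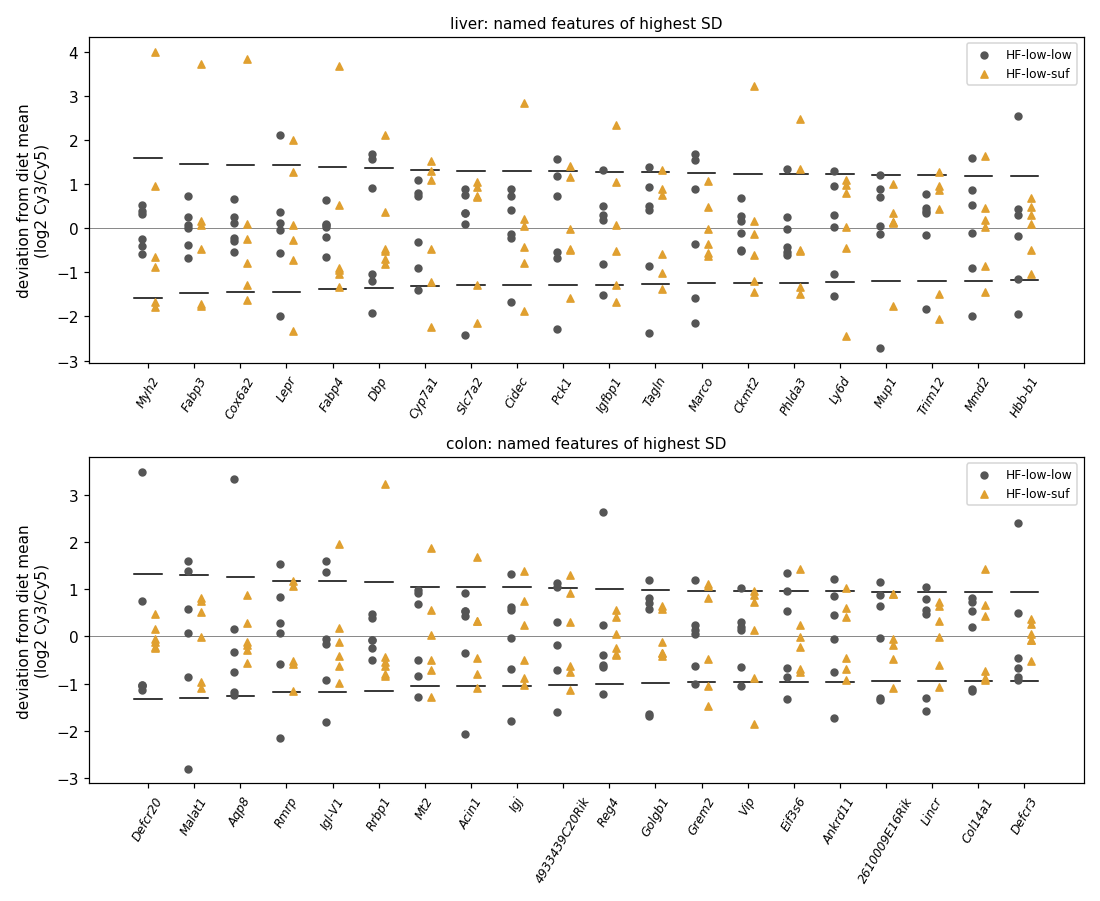
Deviation of each array from its diet mean (y axis, log2 Cy3/Cy5) for the 20 named features of highest SD that are not co-moving (x axis), liver above and colon below, with grey circles for HF-low-low and orange triangles for HF-low-suf mice (6 each) and black lines at 1 SD either side of 0. Single triangles stand apart for Myh2, Fabp3, Cox6a2 and Fabp4 in liver, while Dbp, Pck1 and Igfbp1 spread over many mice. In colon 1 circle, HF-low-low replicate 4, stands apart for Defcr20, Aqp8 and Reg4.

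Pck1 and Igfbp1, which follow feeding state, varied over many liver mice. Pck1, which encodes the enzyme that commits to gluconeogenesis, ran from -1.90 to 1.96 (median 0.49) in HF-low-low and from -1.61 to 1.37 (median -0.27) in HF-low-suf mice, with an SD of 1.29 ± 0.29 in liver and 0.26 in colon. Igfbp1, an insulin-repressed binding protein, ran from 1.36 to 4.19 (median 3.12) and from 1.33 to 5.35 (median 2.77), SD 1.28 ± 0.29. Both diets covered most of the range for both genes, and the SDs were 1.41 and 1.36 without the mice of the raised-reference arrays. Cidec, a lipid droplet protein, had an SD of 1.30, with HF-low-suf replicate 1 highest at 3.82 and 0.89 as the SD without it. The glucose metabolism list as a whole was near typical at a relative spread of 1.19 in liver, with Pgm2 at an SD of 0.17. Lipogenesis genes stood at 1.67 ± 0.16 in liver (7 of 18 most variable, Scd2, Fasn and Elovl6 leading at 0.85, 0.74 and 0.62) and 1.5 ± 0.29 in colon, where Scd1 led at 0.84 (0.40 without the 3 raised-reference mice). Cholesterol synthesis and LDL uptake genes differed more between tissues, at 1.70 ± 0.35 in liver (1.36 without the 3 mice) and 0.94 ± 0.08 in colon. The higher SD was in liver for 15 of 17 members, against 51.1% of all features of both tissues. All 17 lay above their diet mean in liver HF-low-suf replicate 4, one of the arrays with a raised reference.

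Hormone- and stress-driven lists were also variable in liver. Immediate early genes respond within minutes to growth factors and handling. They stood at 1.89 ± 0.28 in liver (1.24 with median centring) and 1.25 ± 0.17 in colon. The higher SD was in liver for 15 of 15 of these genes detected in both, against 51.1% of all features of both tissues. Klf2 is 1 of them through its co-moving feature, and Nr4a1 (a nuclear receptor) had SDs of 0.90 and 0.68. Heat shock genes stood at 1.67 ± 0.19 and 1.38 ± 0.28, led in liver by the co-chaperones Dnajb1 (0.64) and Fkbp4 (0.53). Metallothioneins Mt1 and Mt2, metal-binding proteins, had SDs of 0.83 and 0.90 in liver and 0.77 and 1.05 in colon. The acute phase genes Saa2 and Saa3 were at 0.88 and 0.86 in liver and were farthest in HF-low-low replicate 2 (Saa3 0.54 without it), while Orm1 was steady at 0.13. One major urinary protein feature, assigned to Mup1 in a family of near-identical genes, had an SD of 1.20, with HF-low-low replicate 2 supplying 51.1% of its summed squares and an SD of 0.79 without it.

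Several highly ranked liver genes had a far lower SD without the raised-reference arrays. Slc7a2 (a cationic amino acid transporter) had log2 ratios from 1.70 to 5.01 (median 4.48) in HF-low-low and from 1.20 to 4.39 (median 4.07) in HF-low-suf mice. Its SD was 1.30 with all mice, 0.27 without the 3 mice and 0.33 from Cy3 alone. Trim12 went from 1.20 to 0.34 and 0.32 in the same way, and Gnmt (glycine N-methyltransferase, which disposes of methyl groups) from 0.94 to 0.29 and 0.40. For Cyp7a1, the rate-limiting enzyme of bile acid synthesis, the values were 1.31, 0.87 and 0.64, and for Lepr, the leptin receptor, 1.44, 1.04 and 0.60. The bile acid list fell from 1.56 to 1.19 and the small intestinal enterocyte list from 1.74 to 0.87 without the 3 mice. By contrast Dbp (1.36, 1.24 and 1.70), Marco (1.24, 1.45 and 1.55), Myh2, Fabp4, Pck1 and Igfbp1 kept SDs above 1 in both settings. In colon Rrbp1, with an SD of 1.15, fell to 0.46 in Cy3 alone, its reference signal having an SD of 1.35, and to 0.30 without HF-low-suf replicate 2.

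The least variable liver lists were mostly machinery common to all cells. Mitochondrial ribosomal protein genes had a relative spread of 0.74 ± 0.07, with 20 of 69 among the least variable 10% and none among the most variable. Cytosolic ribosomal proteins stood at 0.80 ± 0.08 (16 of 75 least variable), translation initiation factors at 0.83, respiratory chain and ATP synthase at 0.84 ± 0.11 (16 of 74) and the spliceosome at 0.85. Rpl21, whose feature is co-moving, was an exception at an SD of 1.32. With median centring in place of loess these lists stood at 1.001 (mitochondrial ribosomal), 1.04 (cytosolic ribosomal), 1.05 (initiation factors) and 1.09 (spliceosome), so none of the 4 lay below 1. In Cy3 alone the cytosolic ribosomal list stood at 1.03 and the respiratory chain list at 1.14 in liver, so their place below 1 is lost. The mitochondrial ribosomal list stayed at 0.92. That setting drops the reference and also uses quantile normalisation within tissue in place of loess, and the part of each was not tested. Enzymes and readers of DNA methylation and histone deacetylases were lowest at 0.73 ± 0.08 (11 genes, Hdac3 0.11 to Mbd3 0.44, the latter 0.12 with the co-moving covariate) in liver and 0.83 ± 0.11 in colon (18 genes, to 0.59 for Dnmt3a). Methionine and folate cycle genes were typical at 1.09 ± 0.16 and 0.92 ± 0.09, and selenoproteins at 1.05 ± 0.07 and 0.98 ± 0.13. Among single genes the steadiest in liver were 2610204K14Rik (0.058), 2900064A13Rik (0.058), Cetn3 (a centrosome protein, 0.060), Rheb (a GTPase of the mTOR pathway, 0.064), 2410166I05Rik (0.065) and Ddt (D-dopachrome tautomerase, 0.065). From Cy3 alone their SDs were 0.157, 0.128, 0.082, 0.199, 0.107 and 0.152 in that order, and from processed signals 0.129, 0.092, 0.093, 0.114, 0.102 and 0.144. Ddt was at 0.255 after each array's ratios were divided by their slope. Rheb stayed between -0.50 and -0.29 on all 12 liver arrays, with medians of -0.39 in HF-low-low and -0.40 in HF-low-suf mice.

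In colon the least variable lists after the methylation machinery were proteasome subunits (0.87 ± 0.09) and mitochondrial ribosomal proteins (0.90 ± 0.14, 14 of 71 least variable), and with median centring they stood above 1, at 1.07 and 1.15. Cytosolic ribosomal proteins and the respiratory chain and ATP synthase stood above 1 in colon, at 1.12 ± 0.18 and 1.11 ± 0.22. On colon HF-low-low replicate 1 the respiratory chain genes averaged -0.52 and cytosolic ribosomal genes -0.38 from the diet mean, and without that mouse the lists stood at 0.92 and 0.95. It was also 1 of the 2 colon arrays lowest in co-moving features. The steadiest colon genes were Lass5 (a ceramide synthase, 0.040), Snrpb2 (a U2 snRNP protein, 0.047), Mrpl18 (0.050), Srp14 (signal recognition particle, 0.052), 2310022M17Rik (0.063) and Gpi1 (glucose phosphate isomerase, 0.065). From Cy3 alone their SDs were 0.175, 0.095, 0.094, 0.148, 0.084 and 0.103 in that order, and from processed signals 0.079, 0.104, 0.077, 0.129, 0.112 and 0.127. Lass5 lay between -0.35 and -0.19 on all 12 colon arrays.

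The most variable colon lists beside those of macrophages, collagen and the clock were B and plasma cell, antimicrobial and adipose genes. In liver the same lists stood at 1.46 (2 genes; 0.57 with median centring), 1.70 (3 of 9 most variable; 1.13 with processed signals) and 4.05. B and plasma cell genes, detected for 4 genes, had the highest relative spread at 2.79 ± 0.56, with SDs of 1.003 for Ighg, 0.73 for Pou2af1 (a B cell coactivator) and 0.72 for the joining chain Igj. An immunoglobulin light chain feature, Igl-V1, ran from -0.50 to 2.89 (median 1.20) in HF-low-low and from 0.45 to 3.39 (median 1.17) in HF-low-suf mice. All 4 genes were above their diet mean in HF-low-suf replicate 1 (mean 1.09), and none in HF-low-low replicate 3 (-1.10). Antimicrobial and stress-induced epithelial genes stood at 2.13 ± 0.75, with 8 of 14 among the most variable. By their mean, these genes were highest in HF-low-suf replicate 1 (0.36) and lowest in HF-low-low replicate 3 (-0.38). The member of highest SD, Reg4, a secreted lectin of the gut epithelium, was at 2.0 in HF-low-low replicate 4 and between -1.86 and -0.40 on the other 11 colon arrays. Outside that list, Aqp8, a water channel of surface colonocytes, was at 0.78 on that array and between -3.98 and -2.40 on the others. The defensin feature Defcr20, of a family of near-identical Paneth cell peptides, was at -2.80 there and between -7.54 and -5.53 elsewhere. On the same array small intestinal enterocyte genes (mean 0.39, 10 of 14 above the diet mean) and colonocyte transport genes (0.29, 18 of 27) were at their highest in colon, and smooth muscle genes (-0.33, 1 of 20) and goblet cell genes (-0.12, 5 of 20) at their lowest, and their part in these values was not tested. Without HF-low-low replicate 4 the SDs of Reg4, Aqp8 and Defcr20 were 0.47, 0.54 and 0.58 against 1.01, 1.27 and 1.32. The adipose list in colon stood at 1.89 ± 0.81, and at 1.12 without HF-low-suf replicate 5, on which none of its 11 genes was above the diet mean (mean -1.03). That array had the brightest reference in colon, with a median Cy5 signal of 18.1 times background against 6.08 to 7.49 on the other 11 colon arrays, and the part of this was not tested.

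Liver SD exceeded colon SD more than 2-fold for 629 of the 9111 features (6.9%), and colon SD exceeded liver SD more than 2-fold for 425 (4.66%). The highest ratios were those of the muscle genes Cox6a2 (8.86) and Fabp3 (8.56), then Hsd3b1 (8.01), Gnmt (7.80), Lass5 (7.03), Tagln (smooth muscle transgelin, 6.46), Eno3 (6.43) and Ctss (6.06). One liver array supplied most of the summed squares of Cox6a2, Fabp3 and Eno3 (HF-low-suf replicate 2), Hsd3b1 (HF-low-suf replicate 1) and Gnmt (HF-low-low replicate 6), while Ctss was farthest in HF-low-low replicate 2 (42.4%). Without the 3 raised-reference mice the SD of Gnmt was 0.29 in liver and 0.084 in colon. From Cy3 alone that of Lass5 was 0.255 in liver and 0.175 in colon. Tagln had liver log2 ratios from -3.90 to -0.13 and colon ratios only from 2.32 to 2.90, and in liver it correlated at 0.84 with the co-moving features, just under their limit. The lowest ratios were Aqp8 (0.186), Cmtm8 (0.216), Usmg5 (0.239), Trim55 (0.245), Ddt (0.250), Ankrd11 (0.251), the complement protease C1r (0.258) and Ccni (0.261). For Ddt the SDs were 0.255 in liver and 0.251 in colon after each array's ratios were divided by their slope, so its difference is lost there. The colon SD of Usmg5 fell from 0.611 to 0.262 without HF-low-low replicate 1, against 0.151 in liver, and that of Cmtm8 to 0.328 without HF-low-low replicate 4. After slope division C1r was at 0.310 and 0.649 and Cmtm8 at 0.274 and 0.653 in liver and colon, and from Cy3 alone Ccni was at 0.212 and 0.344, which is under 2-fold. C1r is made by hepatocytes, where it lay between 1.5 and 2.0, and its colon ratios ran from -2.42 to -0.64. By list, the respiratory chain had the higher SD in liver for 13 of 72 genes, cytosolic ribosomal proteins for 19 of 75 and skeletal muscle for 19 of 21. Among all features of both tissues the share was 51.1%. Without HF-low-low replicate 1 the relative spread in colon went from 1.11 to 0.92 for the respiratory chain and from 1.12 to 0.95 for cytosolic ribosomal proteins. Without HF-low-suf replicate 2 that of skeletal muscle in liver went from 2.57 to 1.52.

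Circadian clock genes were variable in both tissues. The deviations of Nfil3 and Dbp correlated between liver and colon of the same mouse, though not past adjustment over all features. The list stood at 1.87 ± 0.28 in liver (5 of 9 most variable) and 1.89 ± 0.44 in colon (7 of 13). Dbp, a clock output transcription factor, ran in liver from -1.21 to 2.40 (median 0.65) in HF-low-low and from -0.35 to 2.58 (median -0.03) in HF-low-suf mice, and in colon from -0.27 to 1.83 and from -0.33 to 1.89. HF-low-low replicates 1 and 2 and HF-low-suf replicate 4 were the mice with liver Dbp above 2, and in colon they were at 1.26, 1.83 and 1.89. The same mice were the lowest 3 in liver for Nfil3, the repressor that opposes Dbp, at -0.36, -0.24 and -0.39, and in colon HF-low-suf replicate 4 was lowest at -2.54. The partial correlation of liver with colon over 12 mice, with diet removed, was 0.92 for Nfil3 (rho = 0.90; permutation P = 0.00023 and 0.00070; r = 0.86 without the 2 mice farthest from the median) and 0.87 for Dbp (rho = 0.87; permutation P = 0.00038 and 0.00023; r = 0.83). Nfil3 was named for the smallest P of all features and Dbp with the other clock genes after their values were seen, so these P values are a description. Across all 9111 features the F test with Benjamini-Hochberg adjustment called none (0%), with adjusted P of 0.303 for Nfil3 and 0.432 for Dbp.

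**Figure D5:**
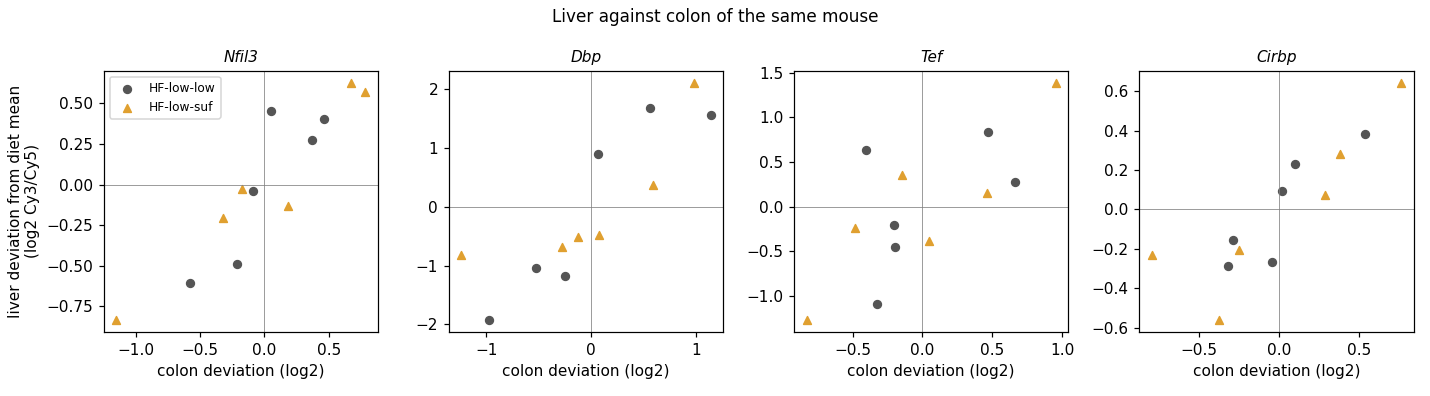
Deviation from the diet mean in liver (y axis, log2 Cy3/Cy5) against colon (x axis, log2 Cy3/Cy5) of the same mouse for Nfil3, Dbp, Tef and Cirbp, 1 point per mouse, grey circles HF-low-low and orange triangles HF-low-suf. Points rise from lower left to upper right in all 4 panels, with partial correlations of 0.92, 0.87, 0.74 and 0.87.

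Other clock genes were less close. Tef, a relative of Dbp, had r = 0.74, the repressor Bhlhb2 0.67, the activators Arntl and Clock 0.61 and 0.56, and Rora -0.29. Of the 8 clock genes detected in both tissues 7 were positive, with a median r of 0.64, against -0.32 when each liver was set against the colon of the other mouse on its slide. For Tef, Arntl and Clock r was 0.44, 0.30 and 0.22 without the 2 mice farthest from the median, so those relations rest on these mice. Over all features the median r was 0.17 (0.082 with the co-moving features as a covariate and 0.38 with median centring) and 67.6% were positive, against -0.01 and 48.4% for the other mouse of the slide. There were 577 features (6.33%) with a positive r at an unadjusted P below 0.05 and 83 with a negative one. Among the smallest P values after Nfil3 were those of Tpcn1 (an endolysosomal channel, r = 0.90), Tial1 (an RNA-binding protein, 0.89), Lpp (0.89), Leng1 (0.87), Gtpbp3 (0.87) and Cirbp (cold-inducible RNA-binding protein, 0.87). All 22 interferon-stimulated genes (median r 0.35) and all 16 collagen and matrix genes (0.33) were positive. The antigen presentation list had a median of 0.50, with 7 of 9 positive.

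Scan day was the check on technical grouping. In liver 322 of 9761 features (3.3%) differed between the 2 days by limma with Benjamini-Hochberg adjustment, 146 higher and 176 lower on the second day, while in colon 0% did (696 at an unadjusted P below 0.05, smallest adjusted P 0.876). The limma test of the difference between tissues called none of 9111 (1035 unadjusted, smallest adjusted P 0.281), so the effect is not shown to be particular to liver. All 3 raised-reference arrays were scanned on the second day, and without their mice the liver count was 0 (1552 unadjusted, smallest adjusted P 0.0501). Each slide lay within 1 day, and with the slide as a random block 51 were called in liver and 0 in colon (593 at an unadjusted P below 0.05). The liver count was also 39 without HF-low-low replicate 6 alone, and 6 without HF-low-suf replicates 1 and 2. Higher on the second day were Hsp90b1 (an endoplasmic reticulum chaperone, log2 difference 1.30, adjusted P = 0.00048 by limma), the nuclear RNA Malat1 (1.49, 0.0020), Eif4ebp2 (1.36, 0.0080), Tax1bp1 (0.86, 0.0074) and Pdlim5 (0.62, 0.0080). Lower were Sprr1a (-1.24, 0.0080), the fatty acid transporter Cd36 (-1.03, 0.0131), Rasgrp2 (-0.93, 0.0020), 1110021J02Rik (-0.93, 0.0115) and Mrpl54 (-0.52, 0.0120). With the slide as a random block the adjusted P of these 10 ran from 0.0021 for Hsp90b1 to 0.0263 for Cd36. Of the 322 features 77 (23.9%) were among the 10% of highest SD. The SD keeps the day difference, so features called for scan day are raised in it by construction.

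A difference in array spread between the days was not shown. In liver the array spread averaged 0.192 ± 0.038 (SD, n = 6) on the first day and 0.149 ± 0.019 on the second, with P = 0.1 by an exact permutation test over the 3 slides of each day, the smallest it can give. Without the 3 raised-reference mice the averages were 0.179 and 0.155 (exact permutation P = 0.2). In colon they were 0.176 and 0.163 with all mice (exact permutation P = 0.5). SD ranks from the first day correlated with those from the second at a Spearman rho of 0.31 in liver and 0.48 in colon. Scan day holds other mice and other slides, so day, slide and mouse cannot be told apart.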

How the data were processed

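Total RNA of liver and colon of 12 mice was labelled with Cy3 and hybridised with a Cy5-labelled pool on Agilent mouse arrays of 45018 spots (1639 controls), 1 array per tissue and mouse on 6 slides. The deposited values are spot intensity readings of both dyes per array, quantified by the authors with Agilent Feature Extraction (9.5.3.1 per the file headers), with probe positions in build mm7. The authors' methods name global loess and limma. The processed intensity of the same deposited files served as an alternative, and no table of another kind was used. The number of arrays limits the precision.

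The normexp method with an offset of 50 was applied to the mean spot signals, each array was then loess normalised (R 4.3.3, limma 3.58.1), and repeated spots of a feature were averaged. Of 41174 features 30936 carry a gene symbol in the files, and accessions of 22951 matched the RefSeq gene table. Figures were drawn with matplotlib 3.10.9. The scripts were tested on simulated data.

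Samples were grouped by tissue and diet from the labels. Labels give the mouse of each sample, so liver and colon were paired by mouse, and replicate numbers between diets mark a shared slide. Nothing states separate litters or cages. Diet, scan-day and diet-spread calls are from limma with Benjamini-Hochberg adjustment at 0.05, same-mouse calls from the F test of a partial correlation with 9 residual degrees of freedom, array spreads from exact permutation or sign-flip tests, and named correlations from 100000 permutations within diet. P-values are two-sided.

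The text names the 12 genes of highest and 6 of lowest SD per tissue, 8 of highest and 8 of lowest SD ratio, up to 3 most and 1 least variable of each list, 8 of smallest same-mouse P and 5 scan-day genes each way. Genes of highest SD that are not co-moving, the clock genes and the second features of co-moving genes were added after their values were seen, and a few items the rule names are not reported here. Members, 52 gene lists and tests were chosen with earlier results of these data known. Alternatives covered background correction, centring, Cy3 alone, detection, SD measure, slide and day means, and leaving out each mouse.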

Additional observations from a re-analysis of the deposited data

Results flagged for a closer look

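Within each group of 6 arrays, a sample was picked out where its gap to the nearest other sample was large against the range of the group by Dixon's criterion. Chance alone picks about 1 in 20 groups, 187 groups were checked, and genes ranked for a high SD are picked more often, so the 35 values below are a description. None was set against an explanation.

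Liver HF-low-low replicate 3 was farthest for the co-moving features, with a mean deviation of -3.19, and for 11 of their genes. Its log2 ratios there were -7.35 for Cox17, -6.12 for Klf2, -5.60 for H1fx, -5.24 for Rusc1, -5.16 for Slc4a7, -5.03 for Lars2, -4.73 for Grn, -4.65 for Tcfap2e, -4.55 for 9530080O11Rik, -4.22 for Tmem165 and -4.19 for 2610009E16Rik. On the same array the hepatocyte genes averaged -0.58 from the diet mean. Colon HF-low-suf replicate 2 stood apart for the same kind of feature at -5.62 for Cox17, -4.98 for Klf2, -4.46 for Cdk5r2, -4.33 for H1fx, -3.98 for Rusc1, -3.82 for Synpo and -3.81 for Tcfap2e, and for Rrbp1 at 4.35 and the hepatocyte list at -0.40. Colon HF-low-low replicate 1 stood apart for Tmem165 at -3.93 and for the exocrine pancreas list at -0.53.

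Liver HF-low-suf replicate 2 was high in muscle genes, with a mean deviation of 1.70 for the skeletal muscle list, 1.45 for Fabp3 and 0.41 for Cox6a2 as log2 ratios. Liver HF-low-suf replicate 1 was at 2.24 for Fabp4, liver HF-low-low replicate 6 at 1.70 for Slc7a2 and liver HF-low-low replicate 5 at -0.35 for 2610204K14Rik. In colon HF-low-low replicate 4 was at 0.78 for Aqp8 and at -0.32 for the hepatocyte list, and HF-low-low replicate 1 at 0.25 for Gpi1. Colon HF-low-suf replicate 5 averaged -1.03 for the adipose list, and HF-low-suf replicate 1 averaged 0.36 for the antimicrobial list.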

How the results depend on the processing

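There were 31 other settings, of which 12 leave out 1 mouse each and 4 were chosen after seeing the data (a covariate for the co-moving features, leaving those features out, dividing each array's ratios by their slope on the tissue mean, and leaving out the 3 mice of the raised-reference liver arrays). The settings without the brightest reference arrays and without the 2 HF-low-suf mice high in adipose and muscle genes also pick arrays by their values in these data. The difference in array spread between liver and colon turned negative without background correction (-0.0021), with plain subtraction (-0.0021), with processed signals (-0.00055), in Cy3 alone (-0.0057), with scan-day means removed (-0.0079), with the co-moving covariate (-0.0111) and after dividing by the slope (-0.0034), and ran from -0.0066 to 0.0136 with 1 mouse left out. It was largest with median centring (0.0563, exact sign-flip P = 0.149). With the replicate block (slide) removed it was -0.0174. The HF-low-suf minus HF-low-low difference turned positive with median centring in liver (0.0468) and colon (0.0206), and ran from -0.0285 to 0.0103 in liver and from -0.0576 to -0.0108 in colon with 1 mouse left out, with an exact permutation P of 0.0433 in colon without HF-low-suf replicate 2. Removing the replicate block left 3.73e-05 and 4.70e-05, since 2 arrays of a tissue per slide then deviate equally. Numbers pair the samples of a mouse by the labels, and between diets they share a slide only.

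The liver scan-day count of 322 was 51 with the slide as a random block (chosen after seeing the data, for scan-day counts only), 3045 with median centring, 205 with 1 feature per gene, 169 with detection on at least 6 arrays, 735 with the co-moving covariate, 30 without the 2 mice of the brightest reference arrays, 6 without the 2 HF-low-suf mice high in adipose and muscle genes and 0 without the 3 raised-reference mice, and ran from 39 (without HF-low-low replicate 6) to 463 (without HF-low-low replicate 2). It has no value with day or slide means removed. The colon count of diet-dependent spread was 1 with 1 feature per gene, and the same-mouse count was 4 with processed signals and 0 to 1 with 1 mouse left out (1 without HF-low-low replicate 4). The ratio of median SDs, 1.02, was 0.858 with the replicate block removed and 0.945 to 1.09 with 1 mouse left out. The cause was not tested for any of these. Of the list values 2892 moved by less than their error and 239 by more, and of the gene values 13627 and 1402. The 10 degrees of freedom and the dim end of the reference channel limit what can be ranked.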

Other observations

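Some lists not described above had values of note. Red blood cell genes had a relative spread of 1.98 in liver (1.08 with median centring) and 1.26 in colon, and 1 feature of Hbb-b1 (a beta globin, 1 of several near-identical genes) had an SD of 1.18 in liver. The list was highest in liver in HF-low-low replicate 1 (0.57, 4 of 5 genes above the diet mean) and lowest in HF-low-low replicate 4 (-0.77). Xenobiotic enzymes varied more in liver than the typical feature, at 1.30 for the cytochrome P450 families and 1.40 for phase II conjugation enzymes, and stood at 0.95 for both in colon. Gsta2, a glutathione transferase, had an SD of 1.06 in liver and Cyp2c54 0.88. In the amino acid lists Sds (serine dehydratase) and Glul (glutamine synthetase, found in hepatocytes around the central vein) had liver SDs of 0.92 and 0.66.

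In colon the goblet cell list was typical at 1.02, yet Retnlb and Muc2, which encode a goblet cell cytokine and the main mucin, had SDs of 0.66 and 0.54 (Retnlb 0.20 without HF-low-low replicate 4). The enteric nervous system list stood at 1.22 in colon, with 2 of 14 genes among the most variable, and at 0.70 with median centring. In it the neuropeptide Vip had an SD of 0.96 and the glial gene S100b 0.69, both farthest in HF-low-suf replicate 5, the array that was also lowest in adipose genes and had the brightest reference in colon.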
